A study of Homo sapiens with 36 samples.

Results

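The 48 genes described here carry out S phase and DNA replication, and were taken by gene symbol out of 20633 genes that at least 1 of 4 tables of RNA-sequencing counts lists. All 48 were present in each table, and each passed the filter on low counts there. They fall into 8 groups by role: 2 E2F transcription activators, 5 genes of nucleotide supply, 10 of origin licensing, 7 of origin firing, 6 polymerase and primase subunits, 8 genes of the sliding clamp, its loader and the lagging strand, 5 of chromatin assembly and histone supply, and 5 of fork protection and repair. The study asks how hydroxylation of proline 16 on histone H3 bears on gene expression. EglN2 is a prolyl hydroxylase that depends on oxygen, and KDM5A is a demethylase that removes methyl groups from lysine 4 of histone H3. Knockdown of each was compared with its own controls in 2 human cell lines. Cells received siEglN2-1, siEglN2-2 or the control siControl, or else shKDM5A-1, shKDM5A-2 or the control shControl. With 3 libraries of total RNA in each of the 12 groups this gave 36 libraries, all from cells grown in DMEM with 10% FBS.

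293T is a line derived from human embryonic kidney that carries adenovirus E1 genes and the SV40 large T antigen, both of which produce proteins that bind RB family proteins. MDA-MB-231 is a line from a human breast carcinoma. Each line is a single established line, the times after transfection or infection were not given, and the sequences of the siRNAs and shRNAs were not used here. Nothing in the labels tells if the 3 libraries per group stem from independent cultures. The p-values thus cover the spread among these libraries alone, which may be technical. Both reagents of an experiment share the same 3 control libraries, so that their values against the controls are not independent of each other.

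DNA is copied once per cell cycle. In G1, the origin recognition complex, CDC6 and CDT1 load the MCM2 to MCM7 ring onto DNA, which is called licensing. In S phase the kinase CDC7 and the factors CDC45 and GINS turn that ring into a working helicase, and the polymerases alpha, delta and epsilon copy both strands with the help of the clamp PCNA. Many of these genes are transcribed at the G1 to S transition by E2F proteins, which the RB family holds back, and KDM5A was first known as a protein that binds RB. In bulk RNA, fewer cells in S phase and less RNA of a gene per cell cannot be told apart.

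Library totals were 20535514 to 27592132 counts for the siRNA experiment in 293T, 17176767 to 23417909 for the shRNA experiment in 293T, 14361214 to 18011743 for the siRNA experiment in MDA-MB-231 and 14850582 to 19661501 for the shRNA experiment in MDA-MB-231. The targets fell in every experiment. EGLN2 changed by -1.57 and -1.54 with siEglN2-1 and siEglN2-2 in 293T and by -2.24 and -2.29 in MDA-MB-231, on the log2 scale. For KDM5A the log2 changes with shKDM5A-1 and shKDM5A-2 were -1.30 and -1.08 in 293T and -1.57 and -1.42 in MDA-MB-231. Of 8 markers of 293T, all 8 were in both 293T tables and none was in an MDA-MB-231 table. Likewise, 10 of 10 markers of MDA-MB-231 were in both MDA-MB-231 tables. Of these 10, the 293T tables listed 5 or 7, at a summed level of at most 40.8 counts scaled to the library total (CPM) there against at least 2616 CPM in MDA-MB-231. Of 8 markers of blood, endothelial, epithelial and liver cells, 2 or 3 were in a table, at a summed level of at most 16.0 CPM. One siControl library of 293T, whose column carries no replicate number, stood apart from the other two: the SD of log2 differences over genes was 0.340 and 0.343 against them, and 0.165 between them.

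The promoters of these genes are shown first, because the E2F site is the sequence by which many of them are known to be controlled. RefSeq windows on GRCh38.p14, from 250 bases before to 50 bases after an annotated start, were at hand for 44 of the 48 genes. The letters TTTCCCGC, TTTCGCGC, TTTGCCGC or TTTGGCGC, which are forms of the E2F site, stood on either strand in the windows of 24 of 44 genes (54.5%), against 1090 of 27305 genes with such windows (3.99%) and 724 of the 11526 with windows that were tested in the counts (6.28%). TTTCCCGC was in 13 genes of the 44, TTTGGCGC in 10, TTTCGCGC in 6 and TTTGCCGC in 1. The CCAAT box, read as CCAAT on either strand, was in 25 of 44 genes (56.8%), against 42.9% of the tested genes, and the letters TTTGAA of the CHR element, best known from genes of G2 and mitosis, were in 3 of 44 (6.82%), against 13.96% of the tested genes. Below are the 160 bases before the start for 5 genes, given 5′ to 3′ along the strand of the gene, with the E2F letters in capitals. All 5 are examples that hold E2F letters. E2F1 and E2F2 rose in 293T with siRNA against EglN2, MCM6 and PCNA fell with it, and HELLS was called in opposite directions with the KDM5A shRNAs in MDA-MB-231. Many genes with the same calls hold no E2F letters. They stood in 3 of the 7 genes that rose with both siRNAs in 293T and in 10 of 16 with a window that fell. Of the 8 called in opposite directions in MDA-MB-231, 4 held them.
E2F1 promoter, chr20:33686386-33686545, minus strand: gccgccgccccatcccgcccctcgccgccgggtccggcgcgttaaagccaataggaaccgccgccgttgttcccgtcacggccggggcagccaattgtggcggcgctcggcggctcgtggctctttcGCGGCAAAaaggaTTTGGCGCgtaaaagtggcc
E2F2 promoter, chr1:23531234-23531393, minus strand: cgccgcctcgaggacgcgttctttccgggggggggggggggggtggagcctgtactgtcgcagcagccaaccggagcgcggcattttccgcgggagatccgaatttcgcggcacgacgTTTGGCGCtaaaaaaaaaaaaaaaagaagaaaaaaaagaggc
MCM6 promoter, chr2:135876444-135876603, minus strand: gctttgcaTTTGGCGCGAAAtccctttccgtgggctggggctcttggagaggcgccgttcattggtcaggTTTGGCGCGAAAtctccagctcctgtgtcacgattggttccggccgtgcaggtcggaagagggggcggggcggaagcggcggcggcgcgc
PCNA promoter, chr20:5126623-5126782, minus strand: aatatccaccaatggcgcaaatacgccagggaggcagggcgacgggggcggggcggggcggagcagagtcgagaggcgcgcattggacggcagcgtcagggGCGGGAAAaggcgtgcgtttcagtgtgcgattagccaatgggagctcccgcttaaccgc
HELLS promoter, chr10:94545628-94545787, plus strand: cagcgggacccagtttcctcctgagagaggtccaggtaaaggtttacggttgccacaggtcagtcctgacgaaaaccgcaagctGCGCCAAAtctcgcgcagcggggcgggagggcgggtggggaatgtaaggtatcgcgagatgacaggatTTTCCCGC

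In MCM6 the letters stand at -152 and -90 counted from the start, and at each place they overlap with a match on the opposite strand. E2F1 has them at -33 and -20, E2F2 at -42, PCNA at -59 and HELLS at -76 and -8. RRM2, which rose in every comparison below, holds no E2F letters in its windows but has CCAAT at -123, -93 and -66. A match is a description of these letters, and binding was not measured in these libraries. The letters were in 9 of 15 genes with a window among those lower with both siRNAs in both lines, and in 10 of 17 among those called with neither siRNA in 293T.

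With EglN2 knocked down, much of the replication machinery was lower, and E2F1 and RRM2 were higher. In 293T, 18 of the 48 genes fell with both siRNAs and 7 rose with both (edgeR quasi-likelihood test, Benjamini-Hochberg adjusted p under 0.05 over all 17622 genes tested), where 15.5% of all genes tested fell and 14.6% rose. In MDA-MB-231, 35 fell and 2 rose, where 20.4% of the 15109 genes tested fell and 18.3% rose. Of the 48 genes, 19 were called with neither siRNA in 293T and 5 in MDA-MB-231. Of all genes tested, 10719 of 17622 in 293T and 7373 of 15109 in MDA-MB-231 were called with neither, which are larger shares. The median log2 fold change of the 48 genes was -0.09 and -0.07 with siEglN2-1 and siEglN2-2 in 293T and -0.23 with each siRNA in MDA-MB-231, where the median of all genes tested lay between 0.00 and 0.01. The 17 genes that fell with both siRNAs in both lines made up 17 of the 18 lower in 293T and 17 of the 35 lower in MDA-MB-231. They were DUT, TYMS, ORC1, MCM2, MCM3, MCM4, MCM5, MCM6, MCM7, CDC45, GINS2, POLA2, PCNA, RFC5, FEN1, ASF1B and SLBP. The share of all genes tested that fell with both siRNAs in both lines was not computed. No gene of the 48 differed between the siRNAs in either line by the edgeR test or by DESeq2. The same held for nearly all genes, of which edgeR called 0 of 17622 in 293T and 1 of 15109 in MDA-MB-231. Of the 48, 0 in 293T and 2 in MDA-MB-231 had an unadjusted p under 0.05, where 276 and 940 of all genes tested did. Without the unnumbered siControl library, 20 fell and 8 rose with both siRNAs in 293T, with DUT at -0.69 and -0.76 and BRCA2 at 0.60 and 0.51 with siEglN2-1 and siEglN2-2. The count of 18 in 293T was 10 without siEglN2-2 replicate 3, 11 without siEglN2-2 replicate 1 and 12 without siEglN2-2 replicate 2, and it was 9 when each siRNA was fitted with the controls alone.

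**Figure D1:**
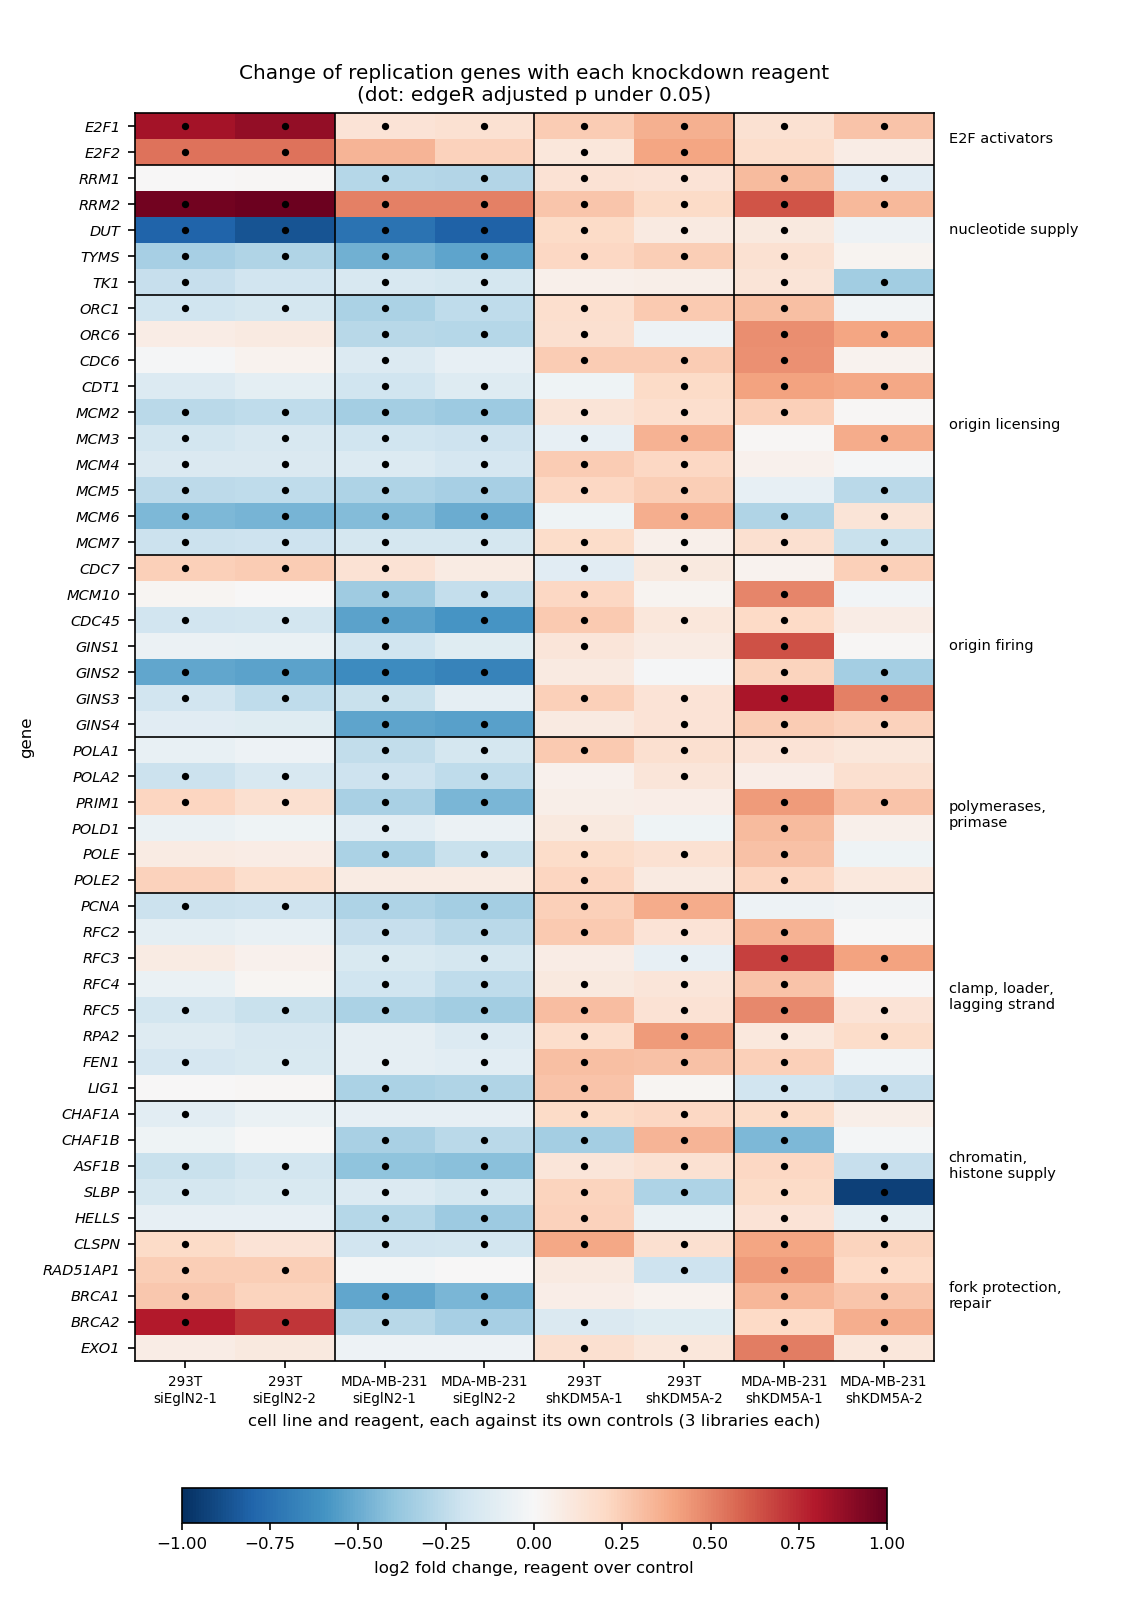
Log2 fold change of each of the 48 genes (rows, in role groups) with each reagent over its own controls (columns, 3 libraries each), where red is higher and blue lower with the reagent and a dot marks an edgeR adjusted p under 0.05. The siRNA columns are mostly blue, with red for E2F1, E2F2, RRM2 and CDC7 in both lines and for BRCA2 among others in 293T. E2F2 was called with neither siRNA in MDA-MB-231 and has no dot there, and CDC7 was called there with siEglN2-1 only. The shRNA columns are mostly red, with 26 genes higher with both shRNAs in 293T and 15 in MDA-MB-231.

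Both E2F activators and RRM2 rose with both siRNAs in 293T, and E2F1 and RRM2 did in MDA-MB-231. E2F1, the activator that drives many of the other genes, had 104, 105 and 104 CPM with siEglN2-1, 107, 105 and 110.5 with siEglN2-2, against 58.7, 52.9 and 63.9 CPM with siControl in 293T. All 6 siRNA libraries of E2F1 lay above the 3 controls, and the log2 fold changes (± SE) were 0.84 ± 0.06 (adjusted p = 5.26e-06) with siEglN2-1 and 0.88 ± 0.06 (adjusted p = 3.58e-06) with siEglN2-2. E2F2, a second activator of that kind, had 57.5, 59.7 and 58.2 CPM with siEglN2-1, 56.4, 58.4 and 60.9 with siEglN2-2, against 41.5, 41.5 and 37.3 CPM with siControl in the same line. Its groups did not overlap either, and the log2 fold changes were 0.54 ± 0.05 (adjusted p = 4.30e-05) with siEglN2-1 and 0.54 ± 0.05 (adjusted p = 4.41e-05) with siEglN2-2. RRM2, the small subunit of ribonucleotide reductase that makes deoxynucleotides and that peaks in S phase, had 276, 276 and 276 CPM with siEglN2-1, 276, 279.7 and 281 with siEglN2-2, against 142, 137 and 145 CPM with siControl. Its log2 fold changes of 0.97 ± 0.04 (adjusted p = 1.06e-07) with siEglN2-1 and 0.98 ± 0.04 (adjusted p = 1.07e-07) with siEglN2-2 were the highest among the 48 genes in 293T. In MDA-MB-231, RRM2 had 139.6, 148 and 143 CPM with siEglN2-1, 147, 146 and 138 with siEglN2-2, against 99.9, 101 and 103 CPM with siControl. RRM2 was thus higher in all 6 siRNA libraries of that line too, at 0.50 ± 0.03 (adjusted p = 4.13e-19) with siEglN2-1 and 0.50 ± 0.03 (adjusted p = 3.60e-19) with siEglN2-2. E2F1 had 67.3, 71.1 and 70.7 CPM with siEglN2-1, 70.3, 68.6 and 73.1 with siEglN2-2, against 64.2, 64.1 and 62.1 CPM with siControl in MDA-MB-231. Here the shift of E2F1 was small, 0.13 ± 0.04 (adjusted p = 0.00422) with siEglN2-1 and 0.15 ± 0.04 (adjusted p = 9.88e-04) with siEglN2-2, though its groups did not overlap. E2F2 was barely detected in MDA-MB-231, at 0.411 ± 0.0363 CPM per kb of exon in the siControl libraries (SD, n = 3), and was called with neither siRNA there.

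Of the other 4 genes of nucleotide supply, DUT and TYMS fell with both siRNAs in 293T, and all 4 did in MDA-MB-231. DUT encodes the enzyme that breaks down dUTP and so keeps uracil out of DNA. DUT had 82.2, 79.8 and 78.2 CPM with siEglN2-1, 76.4, 79.3 and 74.2 with siEglN2-2, against 128, 131 and 159 CPM with siControl in 293T, where the unnumbered siControl library was the highest. Every siRNA library was below every control, at log2 fold changes of -0.80 ± 0.07 (adjusted p = 2.67e-05) with siEglN2-1 and -0.86 ± 0.07 (adjusted p = 1.66e-05) with siEglN2-2. In MDA-MB-231, DUT had 62.7, 62.5 and 63.6 CPM with siEglN2-1, 61.3, 60.1 and 58.8 with siEglN2-2, against 109, 103 and 103 CPM with siControl, and the groups again stood apart. Its log2 fold changes there were -0.74 ± 0.04 (adjusted p = 9.69e-22) with siEglN2-1 and -0.81 ± 0.04 (adjusted p = 3.52e-23) with siEglN2-2, the lowest among the 48 genes in that line. TYMS, the enzyme that makes dTMP from dUMP, had 125, 125 and 128 CPM with siEglN2-1, 129.7, 131 and 125 with siEglN2-2, against 151, 149 and 174 CPM with siControl in 293T. TYMS fell without overlap, with log2 fold changes of -0.33 ± 0.06 (adjusted p = 0.00145) with siEglN2-1 and -0.30 ± 0.06 (adjusted p = 0.00258) with siEglN2-2, and in MDA-MB-231 its log2 fold changes were -0.48 ± 0.03 and -0.53 ± 0.02. RRM1, the large subunit of ribonucleotide reductase, had 239.8 to 248 CPM with siEglN2-1 and 244 to 249.8 CPM with siEglN2-2, against 238 to 253 CPM with siControl in 293T, which overlapped, whereas in MDA-MB-231 RRM1 fell, at -0.29 ± 0.02 and -0.29 ± 0.02. Thymidine kinase TK1 fell with both siRNAs in MDA-MB-231, at -0.16 ± 0.03 and -0.18 ± 0.03.

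Of the 10 licensing genes, 7 were lower with both siRNAs in 293T and 9 in MDA-MB-231. All of MCM2 to MCM7, the subunits of the helicase ring, were among the lower genes in both lines. MCM6 had 173, 177 and 177 CPM with siEglN2-1, 175, 172 and 174 with siEglN2-2, against 238, 247 and 236 CPM with siControl in 293T, with no overlap between groups. Its log2 fold changes of -0.45 ± 0.04 (adjusted p = 8.68e-06) with siEglN2-1 and -0.47 ± 0.04 (adjusted p = 6.9953e-06) with siEglN2-2 were the lowest of the ring subunits in 293T. In MDA-MB-231 the level of MCM6 was 55.2 to 59.6 CPM with siEglN2-1 and 54.7 to 55.03 CPM with siEglN2-2, against 76.3 to 79.01 CPM with siControl, at log2 fold changes of -0.44 ± 0.04 and -0.50 ± 0.04. The other ring subunits were nearer to their controls: MCM3, MCM4 and MCM7 had log2 fold changes between -0.21 and -0.14 in both lines, and MCM2 and MCM5 between -0.36 and -0.25. ORC1, the ATPase of the origin recognition complex, fell by 0.20 and 0.18 in 293T and by 0.32 and 0.26 in MDA-MB-231 on the log2 scale with siEglN2-1 and siEglN2-2. The loaders CDC6 and CDT1 were called with neither siRNA in 293T, where CDC6 had log2 fold changes of -0.01 ± 0.05 and 0.04 ± 0.05.

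Among the 7 firing genes, 3 fell with both siRNAs in 293T (CDC45, GINS2 and GINS3) and 4 in MDA-MB-231 (CDC45, GINS2, GINS4 and MCM10). GINS2, a subunit of the GINS complex of the active helicase, had 71.1, 71.6 and 71.7 CPM with siEglN2-1, 71.9, 70.998 and 69.2 with siEglN2-2, against 97.8, 97.4 and 112 CPM with siControl in 293T. Every control exceeded every siRNA library for GINS2, at log2 fold changes of -0.52 ± 0.06 (adjusted p = 6.32e-05) with siEglN2-1 and -0.53 ± 0.06 (adjusted p = 5.43e-05) with siEglN2-2. In MDA-MB-231, GINS2 had 18.95, 17.4 and 17.04 CPM with siEglN2-1, 18.3, 16.4 and 17.5 with siEglN2-2, against 28.7, 25.4 and 28.5 CPM with siControl. Its groups were separate there as well, at -0.63 ± 0.07 (adjusted p = 9.85e-11) with siEglN2-1 and -0.66 ± 0.07 (adjusted p = 1.99e-11) with siEglN2-2. CDC45, which joins GINS and the MCM ring, had 25.6, 25.8 and 27.004 CPM with siEglN2-1, 25.9, 24.8 and 24.9 with siEglN2-2, against 36.3, 38.9 and 38.8 CPM with siControl in MDA-MB-231. CDC45 was lower in every siRNA library, at log2 fold changes of -0.54 ± 0.05 (adjusted p = 9.43e-12) with siEglN2-1 and -0.59 ± 0.05 (adjusted p = 4.81e-13) with siEglN2-2. CDC45 fell less in 293T, at -0.19 ± 0.05 and -0.19 ± 0.05. GINS4, another GINS subunit, had 43.98, 41.1 and 39.9 CPM with siEglN2-1, 40.96, 39.6 and 43.3 with siEglN2-2, against 59.2, 59.6 and 61.5 CPM with siControl in MDA-MB-231. The GINS4 groups were separate, at log2 fold changes of -0.53 ± 0.04 (adjusted p = 3.09e-14) with siEglN2-1 and -0.54 ± 0.04 (adjusted p = 1.15e-14) with siEglN2-2. In 293T, GINS4 was at -0.11 ± 0.05 and -0.12 ± 0.05, which did not pass the test. CDC7, the kinase that starts origin firing, was the firing gene that rose in 293T, with 111, 115 and 111 CPM with siEglN2-1, 118, 116 and 108 with siEglN2-2, against 95.01, 96.9 and 94.4 CPM with siControl. The CDC7 groups did not overlap, and its log2 fold changes were 0.24 ± 0.04 (adjusted p = 0.00206) with siEglN2-1 and 0.25 ± 0.04 (adjusted p = 0.00136) with siEglN2-2. In MDA-MB-231 CDC7 was at 0.14 with siEglN2-1, which passed the test, and at 0.08 with siEglN2-2, which did not. Its siRNA effect did not differ between lines by the edgeR test (-0.12 ± 0.06, adjusted p = 0.0982).

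Of the 6 polymerase and primase genes, PRIM1 rose and POLA2 fell with both siRNAs in 293T, and 4 fell in MDA-MB-231, namely POLA1, POLA2, POLE and PRIM1. POLA2, a subunit of the polymerase that primes each strand, fell with both siRNAs in both lines, at -0.21 ± 0.05 and -0.16 ± 0.05 in 293T and -0.21 ± 0.08 and -0.26 ± 0.08 in MDA-MB-231. PRIM1, the primase that lays the RNA primer, had 46.5 to 50.5 CPM with siEglN2-1 and 45.98 to 47.99 CPM with siEglN2-2, against 40.3 to 43.5 CPM with siControl in 293T. PRIM1 rose there in all 6 libraries, at log2 fold changes of 0.21 ± 0.05 (adjusted p = 0.00898) with siEglN2-1 and 0.16 ± 0.05 (adjusted p = 0.033) with siEglN2-2. In MDA-MB-231 PRIM1 stood the other way, with 14.5, 16.6 and 14.7 CPM with siEglN2-1, 13.6, 13.8 and 14.5 with siEglN2-2, against 19.8, 17.3 and 20.5 CPM with siControl. Again the groups were apart, at log2 fold changes of -0.33 ± 0.08 (adjusted p = 6.07e-04) with siEglN2-1 and -0.46 ± 0.08 (adjusted p = 4.71e-06) with siEglN2-2. PRIM1 and BRCA2 were the 2 genes of the 48 that rose with both siRNAs in 293T and fell with both in MDA-MB-231. The share of all genes that did so was not computed.

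Of the 8 genes of the clamp, its loader and the lagging strand, PCNA, RFC5 and FEN1 fell with both siRNAs in 293T, and 7 fell in MDA-MB-231. PCNA, the ring that holds polymerases on DNA, had the highest level per length of the 48 genes in the controls of each line, at 213.5 ± 18.1 CPM per kb of exon in the siControl libraries of 293T and 145.1 ± 4.49 in those of MDA-MB-231 (SD, n = 3 each; the tables were scaled separately). In 293T it had 266, 269 and 275 CPM with siEglN2-1, 274, 276 and 266 with siEglN2-2, against 301, 297 and 345 CPM with siControl. The PCNA libraries did not overlap, and the log2 fold changes were -0.22 ± 0.06 (adjusted p = 0.0107) with siEglN2-1 and -0.21 ± 0.06 (adjusted p = 0.0146) with siEglN2-2. In MDA-MB-231 they were -0.31 ± 0.03 (adjusted p = 4.73e-10) with siEglN2-1 and -0.34 ± 0.03 (adjusted p = 7.61e-11) with siEglN2-2. RFC5, a subunit of the loader that opens the PCNA ring, fell at -0.19 ± 0.04 and -0.22 ± 0.04 in 293T and -0.32 ± 0.04 and -0.35 ± 0.04 in MDA-MB-231. LIG1, which seals the pieces of the lagging strand, had 106 to 110.4 CPM with siEglN2-1 and 108 to 109 CPM with siEglN2-2, against 105 to 111 CPM with siControl in 293T, and its groups overlapped. In MDA-MB-231, LIG1 fell to 68.1 to 69.9 CPM with siEglN2-1 and 68.7 to 70.9 CPM with siEglN2-2, against 84.1 to 86.4 CPM with siControl.

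Of the 5 genes of chromatin assembly and histone supply, 2 fell in 293T (ASF1B and SLBP) and 4 in MDA-MB-231 (also CHAF1B and HELLS). ASF1B, a chaperone that hands histones H3 and H4 to the replication fork, fell at -0.22 ± 0.05 and -0.19 ± 0.05 in 293T and -0.40 ± 0.04 and -0.42 ± 0.04 in MDA-MB-231. SLBP, which binds the stem-loop that replaces the poly(A) tail of histone messages, fell at -0.18 ± 0.04 and -0.15 ± 0.04 in 293T and at -0.14 ± 0.04 and -0.17 ± 0.04 in MDA-MB-231.

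Of the 5 fork protection and repair genes, BRCA2 and RAD51AP1 rose with both siRNAs in 293T, and BRCA1, BRCA2 and CLSPN fell in MDA-MB-231. BRCA2, which protects stalled forks, had 37.5, 37.5 and 38.4 CPM with siEglN2-1, 36.1, 32.6 and 38.8 with siEglN2-2, against 24.6, 25.3 and 15.3 CPM with siControl in 293T. The unnumbered siControl library was the lowest, and all siRNA libraries lay above all controls, at log2 fold changes of 0.79 ± 0.15 (adjusted p = 0.00229) with siEglN2-1 and 0.71 ± 0.15 (adjusted p = 0.00441) with siEglN2-2. In MDA-MB-231, BRCA2 had 17.1, 15.4 and 16.1 CPM with siEglN2-1, 15.2, 14.98 and 16.4 with siEglN2-2, against 18.9, 19.7 and 20.1 CPM with siControl. These groups did not overlap, and BRCA2 fell there, at -0.28 ± 0.07 (adjusted p = 0.00182) with siEglN2-1 and -0.33 ± 0.07 (adjusted p = 1.83e-04) with siEglN2-2. BRCA1, its partner in repair by homologous recombination, had 93.4, 93.1 and 89.1 CPM with siEglN2-1, 90.4, 85.7 and 91.6 with siEglN2-2, against 81.7, 83.4 and 63.5 CPM with siControl in 293T. BRCA1 was called there with siEglN2-1 only, at 0.27 ± 0.09 (adjusted p = 0.0337) with siEglN2-1 and 0.23 ± 0.09 (adjusted p = 0.0665) with siEglN2-2. In MDA-MB-231, BRCA1 had 19.96, 19.1 and 17.3 CPM with siEglN2-1, 20.8, 18.4 and 19.6 with siEglN2-2, against 26.1, 25.995 and 28.6 CPM with siControl. Its groups stood clear of each other, at -0.52 ± 0.07 (adjusted p = 1.26e-08) with siEglN2-1 and -0.45 ± 0.07 (adjusted p = 1.57e-07) with siEglN2-2. RAD51AP1, which acts in repair by homologous recombination, rose in 293T, at 0.25 ± 0.05 and 0.25 ± 0.05, and was at -0.02 ± 0.06 and 0.00 ± 0.06 in MDA-MB-231, which did not pass the test.

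**Figure D2:**
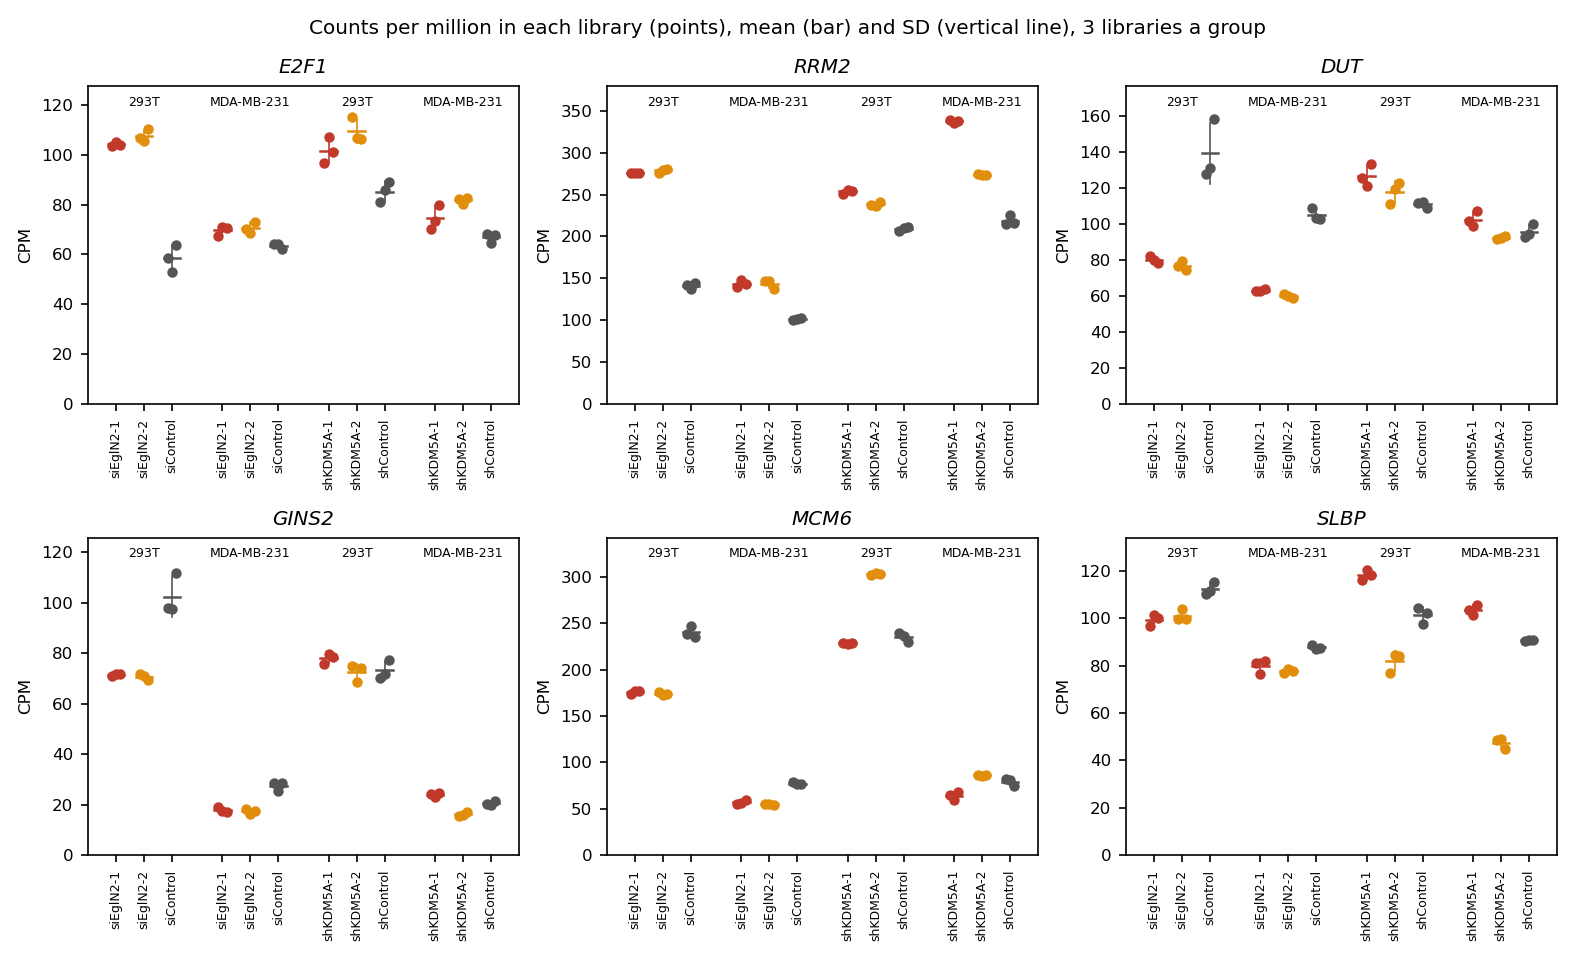
CPM of 6 genes in each library (points), with the mean (bar) and SD (vertical line) of the 3 libraries of a group, knockdown groups to the left of their controls in each experiment. E2F1 and RRM2 lie above their controls in every knockdown group, DUT, GINS2 and MCM6 below them with siRNA against EglN2, and SLBP falls to 44.7 to 49.2 CPM with shKDM5A-2 in MDA-MB-231, against 90.5 to 91.1 CPM in its controls.

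The difference of the siRNA effect between lines was tested on the 18 siRNA libraries, as the mean change of both siRNAs in MDA-MB-231 minus that in 293T. By this edgeR test the target EGLN2 itself fell further in MDA-MB-231, at -2.25 against -1.55 in 293T. That difference was -0.70 ± 0.08 (adjusted p = 5.86e-06). Whether the depth of knockdown bears on the line differences was not tested. The effect differed for 20 of the 48 genes, where 31.2% of the 14579 genes tested in both lines differed, and for all 20 the change in MDA-MB-231 was below that in 293T. In 11 of these 20, the mean change had opposite signs in the lines, counted by sign alone. Some of these signs rest on very small changes, such as 0.005 for LIG1 and RRM1 in 293T and -0.003 for RAD51AP1 in MDA-MB-231. Only PRIM1 and BRCA2 were called with both siRNAs in opposite directions in the lines, a pattern not counted over all genes. BRCA2 differed by -1.05 ± 0.16 (adjusted p = 9.51e-05), with mean log2 fold changes of -0.30 in MDA-MB-231 and 0.75 in 293T. For BRCA1 the difference was -0.73 ± 0.10 (adjusted p = 4.21e-05), with -0.48 in MDA-MB-231 and 0.25 in 293T. E2F1 differed by -0.71 ± 0.06 (adjusted p = 3.34e-07), with 0.15 in MDA-MB-231 and 0.86 in 293T, so that its rise was smaller in MDA-MB-231. PRIM1 differed by -0.57 ± 0.08 (adjusted p = 2.78e-05) and RRM2 by -0.47 ± 0.04 (adjusted p = 2.66e-07). In contrast, DUT differed by 0.06 ± 0.08 (adjusted p = 0.573) and MCM6 by -0.00 ± 0.04 (adjusted p = 0.996), both within their error, with MCM6 at -0.46 in MDA-MB-231 and -0.46 in 293T.

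**Figure D3:**
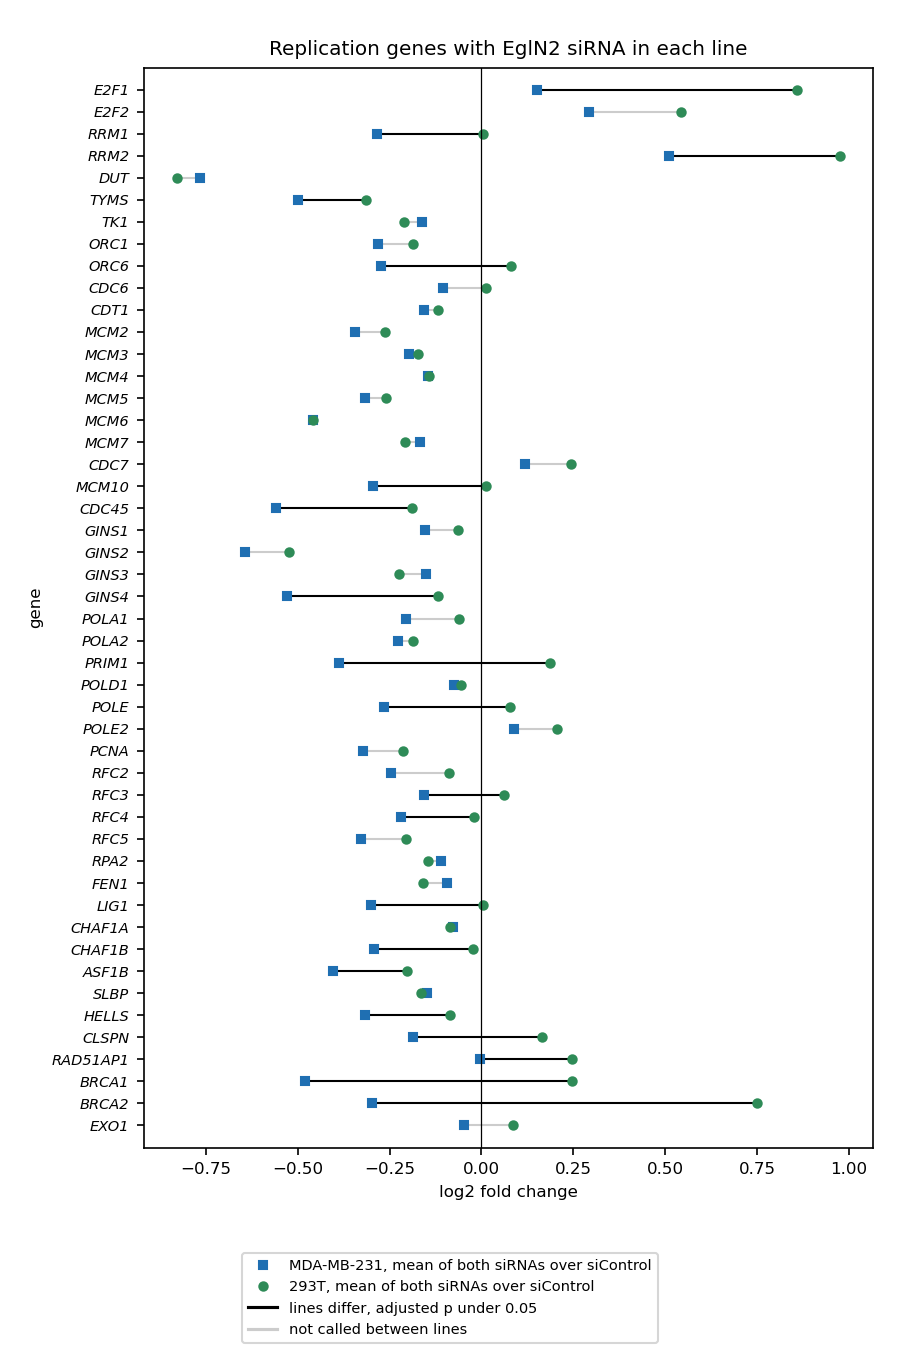
Mean log2 fold change of both EglN2 siRNAs over siControl in MDA-MB-231 and in 293T, as 2 markers joined by a line for each of the 48 genes (down the page), with a black line where the effect differed between lines (edgeR adjusted p under 0.05). All 20 black lines have the MDA-MB-231 marker to the left of the 293T marker, with BRCA2 at -0.30 in MDA-MB-231 and 0.75 in 293T.

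With KDM5A knocked down, more of the 48 genes rose than fell in both lines. In 293T, 26 genes rose with both shRNAs, where 7.33% of the 17376 genes tested rose. With both shRNAs 0 fell, where 6.11% of all genes fell. With DESeq2 the count was also 0, at an unadjusted p under 0.05 it was 1 (BRCA2, at -0.14 ± 0.05 and -0.12 ± 0.05), and without shKDM5A-2 replicate 1 it was 1. With shKDM5A-1 alone, 34 rose and 4 fell, where 21.6% and 20.6% of all genes did, and with shKDM5A-2 alone 33 rose and 3 fell, where 19.5% of all genes rose and 19.5% fell. A further 4 genes were called in opposite directions with the shRNAs, where 8.59% of all genes were. The median log2 fold change of the 48 genes was 0.17 with shKDM5A-1 and 0.13 with shKDM5A-2. By role, both E2F activators, 4 of 5 nucleotide genes, 6 of 10 licensing genes, 2 of 7 firing genes, 2 of 6 polymerase genes, 6 of 8 clamp, loader and lagging strand genes, 2 of 5 chromatin genes and 2 of 5 fork genes rose with both.

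PCNA rose with both shRNAs in 293T, with 320.4, 316 and 319.8 CPM with shKDM5A-1, 342, 349 and 355 with shKDM5A-2, against 274, 269 and 267 CPM with shControl. All shRNA libraries lay above all controls for PCNA, at log2 fold changes of 0.24 ± 0.02 (adjusted p = 6.44e-11) with shKDM5A-1 and 0.37 ± 0.02 (adjusted p = 4.87e-16) with shKDM5A-2. E2F1 had 96.96, 107 and 101 CPM with shKDM5A-1, 115, 107 and 106 with shKDM5A-2, against 80.9, 85.9 and 89.02 CPM with shControl. There was no overlap, and the log2 fold changes were 0.25 ± 0.04 (adjusted p = 2.47e-05) with shKDM5A-1 and 0.36 ± 0.04 (adjusted p = 1.49e-07) with shKDM5A-2. RPA2, a subunit of the complex that coats single-stranded DNA, had 156, 155 and 154 CPM with shKDM5A-1, 184, 185 and 184 with shKDM5A-2, against 136, 136 and 140.2 CPM with shControl. Its 3 groups were separate, in the order shKDM5A-2, shKDM5A-1, control, at 0.17 ± 0.03 (adjusted p = 2.21e-06) with shKDM5A-1 and 0.43 ± 0.03 (adjusted p = 7.71e-16) with shKDM5A-2. FEN1, which trims the flaps of the lagging strand, had 130.1, 134 and 134 CPM with shKDM5A-1, 132, 133 and 132 with shKDM5A-2, against 106, 107 and 111 CPM with shControl. FEN1 stood alike with both shRNAs, at 0.30 ± 0.03 (adjusted p = 2.68e-10) with shKDM5A-1 and 0.29 ± 0.03 (adjusted p = 3.65e-10) with shKDM5A-2. The difference between them was -0.01 ± 0.03 (adjusted p = 0.825). The ring subunits MCM2, MCM4, MCM5 and MCM7 rose with both, MCM5 for instance at 0.21 ± 0.02 and 0.24 ± 0.02, and TYMS rose at 0.20 ± 0.03 and 0.25 ± 0.03.

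The shRNAs differed from each other in 26 of the 48 genes in 293T, where 49.3% of all genes tested differed between them, with shKDM5A-2 above shKDM5A-1 in 9 and below it in 17. KDM5A itself was lower with shKDM5A-1, and the difference of shKDM5A-2 over shKDM5A-1 was 0.22 ± 0.05 (adjusted p = 5.24e-04) in 293T and 0.16 ± 0.07 (adjusted p = 0.0636) in MDA-MB-231. CHAF1B, a subunit of the factor that places histones on new DNA, had 71.5, 72.5 and 71.7 CPM with shKDM5A-1, 116, 114 and 115 with shKDM5A-2, against 89.3, 92.1 and 91.6 CPM with shControl. CHAF1B was thus below the controls with shKDM5A-1 and above them with shKDM5A-2 in all libraries, at -0.34 ± 0.03 (adjusted p = 7.06e-11) with shKDM5A-1 and 0.34 ± 0.03 (adjusted p = 6.39e-12) with shKDM5A-2. The difference between shRNAs was 0.68 ± 0.03 (adjusted p = 1.10e-19). SLBP had 116, 120.4 and 118 CPM with shKDM5A-1, 77.1, 84.5 and 84.2 with shKDM5A-2, against 104, 97.8 and 102 CPM with shControl, which is the opposite order. Its log2 fold changes were 0.22 ± 0.03 (adjusted p = 1.31e-06) with shKDM5A-1 and -0.31 ± 0.03 (adjusted p = 4.85e-09) with shKDM5A-2, and shKDM5A-2 differed from shKDM5A-1 by -0.53 ± 0.03 (adjusted p = 3.54e-15). MCM3 had 316, 318 and 315 CPM with shKDM5A-1, 424, 427 and 425 with shKDM5A-2, against 333, 335 and 337 CPM with shControl. With shKDM5A-1 it was just under its controls and with shKDM5A-2 well over them, at -0.08 ± 0.02 (adjusted p = 0.0017) with shKDM5A-1 and 0.34 ± 0.02 (adjusted p = 3.88e-16) with shKDM5A-2. MCM6 behaved likewise, with 228 to 229 CPM with shKDM5A-1 and 302 to 305 CPM with shKDM5A-2, against 230.1 to 240.1 CPM with shControl, but passed the test against the controls with shKDM5A-2 only. CDC7 had 99.2, 106 and 103 CPM with shKDM5A-1, 117, 118 and 120.4 with shKDM5A-2, against 111, 113 and 109 CPM with shControl. CDC7 was called in both directions, at -0.11 ± 0.03 (adjusted p = 0.00436) with shKDM5A-1 and 0.09 ± 0.03 (adjusted p = 0.0116) with shKDM5A-2. The adjusted p became 0.0563 for shKDM5A-1 without its replicate 1 and 0.0540 for shKDM5A-2 without shControl replicate 3.

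**Figure D4:**
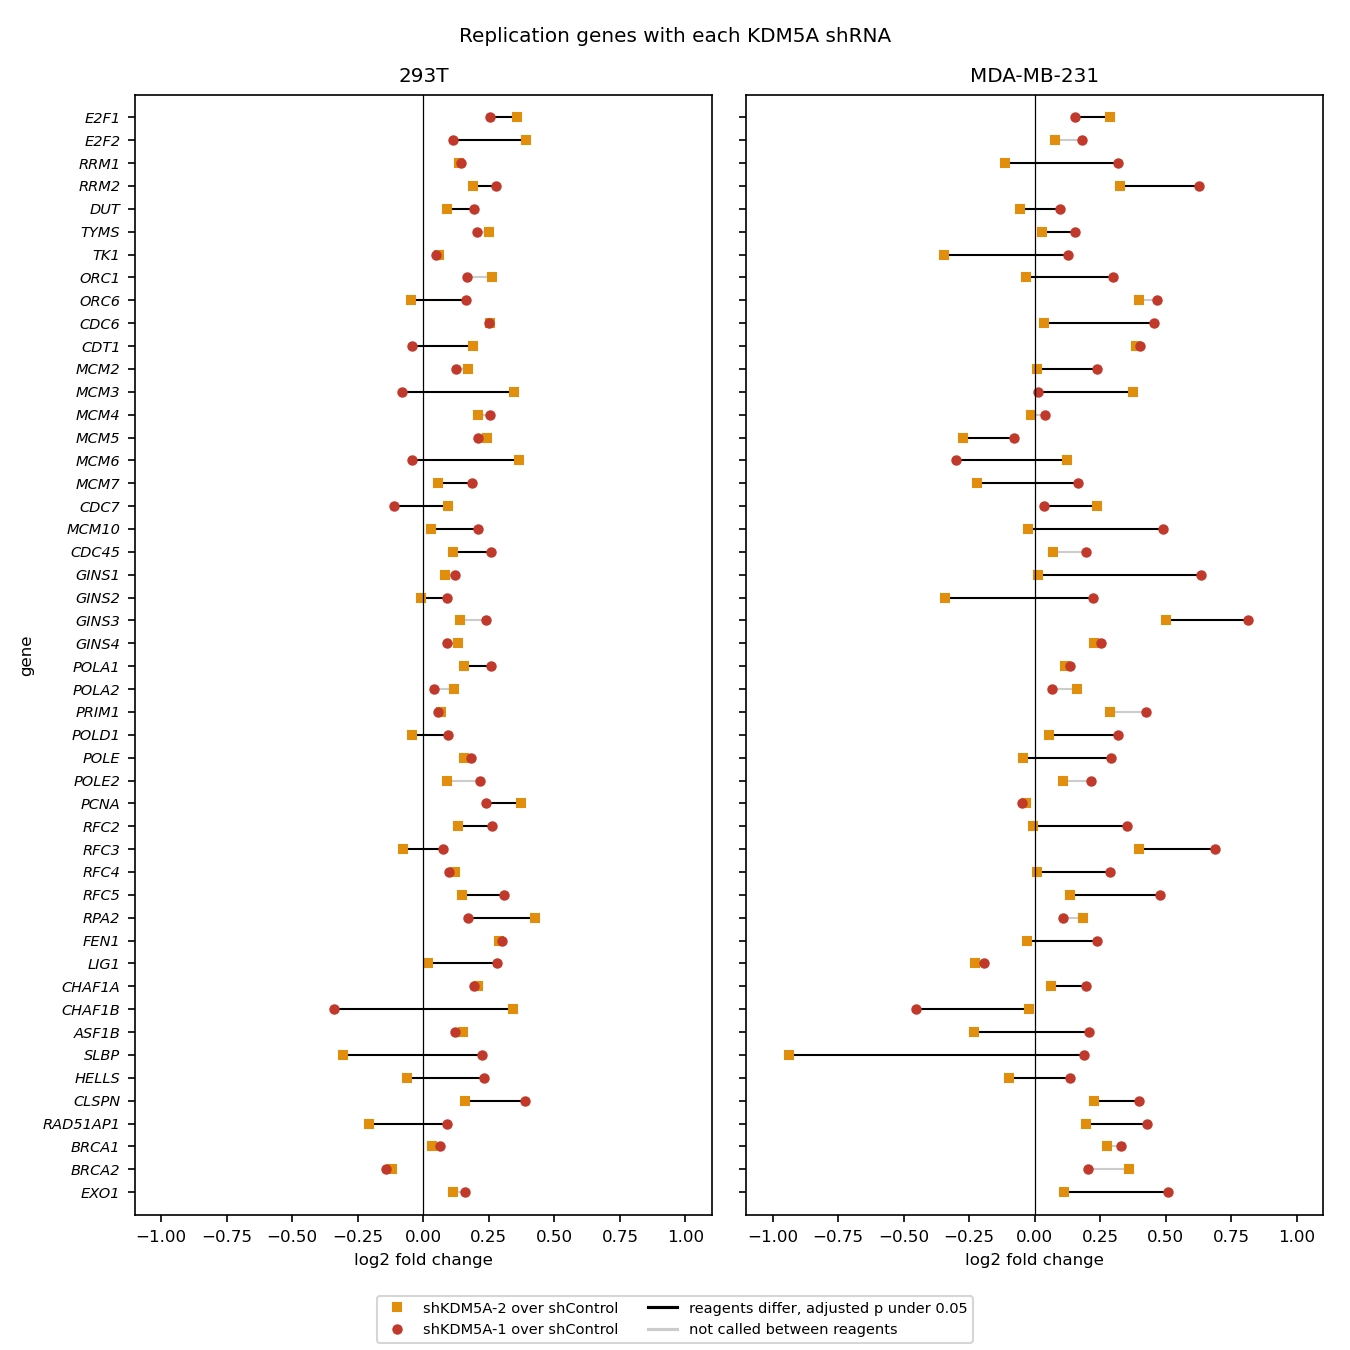
Log2 fold change over shControl of each of the 48 genes (down the page) with shKDM5A-1 and shKDM5A-2 (2 markers joined by a line) in each cell line. A line is black where the shRNAs differed from each other (edgeR adjusted p under 0.05) and grey where they did not. SLBP has the longest line in MDA-MB-231, at 0.19 with shKDM5A-1 and -0.94 with shKDM5A-2.

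In MDA-MB-231, 15 genes rose with both shRNAs against KDM5A, where 16.4% of the 15454 genes tested rose, and 1, LIG1, fell, where 15.8% of all genes fell. Without shKDM5A-1 replicate 3 the count of lower genes was 2. With shKDM5A-1 alone, 38 rose and 3 fell, where 28.1% and 27.2% of all genes did. With shKDM5A-2 alone, 18 rose and 9 fell, where 29.4% and 29.6% of all genes did. The shRNAs gave the 48 genes a median log2 fold change of 0.22 with shKDM5A-1 and 0.06 with shKDM5A-2. Called in opposite directions were 8 genes, where 7.29% of all genes were, and 33 differed between the shRNAs, where 56.6% of all genes did, with shKDM5A-2 above shKDM5A-1 in 5 and below it in 28. All 5 fork protection and repair genes rose with both shRNAs, namely CLSPN, RAD51AP1, BRCA1, BRCA2 and EXO1.

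GINS3, a GINS subunit, had 20.9, 19.6 and 22.8 CPM with shKDM5A-1, 16.8, 17.04 and 17.2 with shKDM5A-2, against 12.3, 11.5 and 12.1 CPM with shControl in MDA-MB-231. GINS3 rose most, with all 3 groups apart, at 0.81 ± 0.07 (adjusted p = 4.72e-11) with shKDM5A-1 and 0.50 ± 0.08 (adjusted p = 1.37e-06) with shKDM5A-2. RFC3, a subunit of the clamp loader, had 66.5, 70.8 and 72.9 CPM with shKDM5A-1, 56.2, 58.9 and 56.98 with shKDM5A-2, against 40.6, 45.2 and 44.5 CPM with shControl. RFC3 too had its groups in the order shKDM5A-1, shKDM5A-2, control, at 0.69 ± 0.05 (adjusted p = 2.96e-14) with shKDM5A-1 and 0.40 ± 0.05 (adjusted p = 1.15e-08) with shKDM5A-2. RRM2 had 339, 336 and 338 CPM with shKDM5A-1, 275, 273 and 273 with shKDM5A-2, against 215, 225 and 216 CPM with shControl. RRM2 rose without overlap, at 0.63 ± 0.03 (adjusted p = 9.19e-20) with shKDM5A-1 and 0.32 ± 0.03 (adjusted p = 1.77e-12) with shKDM5A-2. ORC6, the smallest subunit of the origin recognition complex, had 43.5, 44.5 and 41.6 CPM with shKDM5A-1, 41.7, 40.4 and 41.6 with shKDM5A-2, against 31.1, 30.96 and 31.8 CPM with shControl. ORC6 was close with both shRNAs, at 0.47 ± 0.05 (adjusted p = 1.0002e-09) with shKDM5A-1 and 0.40 ± 0.05 (adjusted p = 2.71e-08) with shKDM5A-2. LIG1 was the gene that fell with both, with 75.4, 77.8 and 78.4 CPM with shKDM5A-1, 77.1, 74.4 and 74.6 with shKDM5A-2, against 90.3, 86.01 and 88.7 CPM with shControl. No shRNA library of LIG1 reached its controls, at -0.19 ± 0.04 (adjusted p = 2.72e-05) with shKDM5A-1 and -0.23 ± 0.04 (adjusted p = 2.17e-06) with shKDM5A-2. BRCA2 had 32.6, 32.4 and 25.7 CPM with shKDM5A-1, 33.6, 32.4 and 35.2 with shKDM5A-2, against 26.8, 26.8 and 25.5 CPM with shControl. For BRCA2, 1 shKDM5A-1 library was inside the range of the controls, and the log2 fold changes were 0.20 ± 0.07 (adjusted p = 0.0219) with shKDM5A-1 and 0.36 ± 0.07 (adjusted p = 1.60e-04) with shKDM5A-2.

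SLBP showed the largest gap between the shRNAs among the 48 genes. In MDA-MB-231 SLBP had 104, 101 and 106 CPM with shKDM5A-1, 48.5, 49.2 and 44.7 with shKDM5A-2, against 90.5, 91.01 and 91.1 CPM with shControl. It stood above its controls with shKDM5A-1 and well below them with shKDM5A-2, at 0.19 ± 0.04 (adjusted p = 3.47e-05) with shKDM5A-1 and -0.94 ± 0.04 (adjusted p = 2.03e-19) with shKDM5A-2. The difference of shKDM5A-2 over shKDM5A-1 was -1.13 ± 0.04 (adjusted p = 1.10e-21). GINS1, which pairs with the other GINS subunits, had 55.8, 60.3 and 53.2 CPM with shKDM5A-1, 36.3, 36.7 and 36.96 with shKDM5A-2, against 33.9, 36.1 and 38.6 CPM with shControl. GINS1 rose with shKDM5A-1 alone, at 0.63 ± 0.05 (adjusted p = 3.03e-12) with shKDM5A-1 and 0.01 ± 0.06 (adjusted p = 0.873) with shKDM5A-2. The shRNAs differed by -0.62 ± 0.05 (adjusted p = 3.15e-12) for GINS1. MCM10, a factor that helps to start the helicase, was likewise higher with shKDM5A-1 alone, with 86.3, 81.7 and 76.8 CPM with shKDM5A-1, 57.5, 57.03 and 56.9 with shKDM5A-2, against 57.4, 59.4 and 57.8 CPM with shControl. Between shRNAs MCM10 differed by -0.51 ± 0.04 (adjusted p = 2.06e-12). GINS2 had 24.3, 23.3 and 24.6 CPM with shKDM5A-1, 15.4, 16.1 and 17.2 with shKDM5A-2, against 20.3, 20.04 and 21.4 CPM with shControl. GINS2 was above its controls with shKDM5A-1 and below them with shKDM5A-2, at 0.22 ± 0.06 (adjusted p = 0.0034) with shKDM5A-1 and -0.34 ± 0.07 (adjusted p = 5.34e-05) with shKDM5A-2. The difference between shRNAs was -0.56 ± 0.06 (adjusted p = 6.19e-09).

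A further 5 genes had that same order of shKDM5A-1 above and shKDM5A-2 below the controls, by calls in both directions. TK1 had log2 fold changes of 0.13 ± 0.03 and -0.35 ± 0.03, MCM7 of 0.16 ± 0.03 and -0.22 ± 0.03, ASF1B of 0.21 ± 0.04 and -0.23 ± 0.04, RRM1 of 0.32 ± 0.03 and -0.11 ± 0.03 and HELLS, a helicase of the SNF2 family, of 0.13 ± 0.04 and -0.10 ± 0.04. HELLS was close to the threshold with shKDM5A-2, at an adjusted p of 0.0482, and missed it without any 1 of shControl replicates 2 and 3 and shKDM5A-2 replicates 1, 2 and 3 (0.0716 to 0.174). Without shControl replicate 1 the call with shKDM5A-1 was lost (0.0751). MCM6 had the reverse order, with 64.5, 59.9 and 68.1 CPM with shKDM5A-1, 86.2, 85.6 and 86.8 with shKDM5A-2, against 82.4, 80.8 and 74.5 CPM with shControl. With shKDM5A-1 it was below the controls in all libraries, at -0.30 ± 0.04 (adjusted p = 8.94e-07) with shKDM5A-1 and 0.13 ± 0.04 (adjusted p = 0.012) with shKDM5A-2. The adjusted p for shKDM5A-2 became 0.166 without shControl replicate 3. Across both lines, shKDM5A-2 was above shKDM5A-1 for 5 genes, namely E2F1, MCM3, MCM6, CDC7 and CHAF1B, which are 5 of the 9 such genes in 293T and 5 of the 5 in MDA-MB-231. It was below for 13 genes, which are 13 of 17 in 293T and 13 of 28 in MDA-MB-231, among them SLBP, RRM2, MCM7, MCM10, GINS2, RFC3 and CLSPN. The shares of all genes tested with the same order in both lines were not computed. E2F letters stood in the promoters of 4 of those 5 genes and of 6 of those 13, where 24 of the 44 genes with a window held them (54.5%). These sets are small, and the difference between them was not tested.

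In 3′ UTRs, the letters GACAGAA, which an earlier analysis of these data had picked out, were in 2 of the 48 genes (4.17%), against 2093 of 13880 genes tested (15.1%), with a median 3′ UTR of 956 bases in the 48 and 1328 in the tested genes. In MDA-MB-231 both genes fell with both siRNAs, as 35 of the 48 genes did, and differed between the shRNAs, as 33 did. The level with shKDM5A-2 was below that with shKDM5A-1 for MCM5 and above it for MCM6. Whether the letters bear on these changes was not tested. The sites are printed with the letters in capitals.
MCM5 3′ UTR site on chromosome 22: gaggattgaatGACAGAAggcactagtga
MCM6 3′ UTR site on chromosome 2: gctctgctaggGACAGAAgtgtttctgga

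The shRNA effect differed between lines for 29 of the 48 genes, where 44.7% of the 14767 genes tested in both lines differed, with MDA-MB-231 above 293T in 15 and below it in 14. The target KDM5A itself fell further in MDA-MB-231, at -1.50 against -1.19 in 293T. By the same edgeR test that difference was -0.31 ± 0.06 (adjusted p = 8.42e-05). RFC3 differed by 0.54 ± 0.05 (adjusted p = 3.35e-12), with mean log2 fold changes of 0.54 in MDA-MB-231 and -0.01 in 293T. In 293T, RFC3 had 125, 128 and 129 CPM with shKDM5A-1, 110.0, 116 and 118 with shKDM5A-2, against 124, 120.2 and 119 CPM with shControl, so that all shKDM5A-1 libraries were above and all shKDM5A-2 libraries below the controls. The test was passed with shKDM5A-2 (adjusted p = 0.0366) and missed with shKDM5A-1 (adjusted p = 0.0519). GINS3 differed by 0.47 ± 0.08 (adjusted p = 3.0019e-06) and BRCA2 by 0.41 ± 0.08 (adjusted p = 6.69e-05), both higher in MDA-MB-231. PCNA differed by -0.35 ± 0.03 (adjusted p = 3.20e-12), with -0.05 in MDA-MB-231 and 0.30 in 293T. MCM5 differed by -0.40 ± 0.04 (adjusted p = 1.28e-10), with -0.18 in MDA-MB-231 and 0.22 in 293T. E2F1 differed by -0.09 ± 0.05 (adjusted p = 0.204), which did not pass the test.

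The 7 genes that rose with both shRNAs in both lines were E2F1, RRM2, GINS3, RFC5, RPA2, CLSPN and EXO1, which are 7 of the 26 in 293T and 7 of the 15 in MDA-MB-231. E2F1 and RRM2 were the 2 genes higher with all 8 combinations of reagent and line. For all genes tested, the shares that rose with both shRNAs in both lines or with all 8 combinations were not computed. The siRNA and shRNA experiments had controls of their own. In 293T, 13 genes fell with both siRNAs and rose with both shRNAs, which are 13 of 18 and 13 of 26, where 2.64% of the 17015 genes tested in both experiments did so. These were DUT, TYMS, ORC1, MCM2, MCM4, MCM5, MCM7, CDC45, GINS3, PCNA, RFC5, FEN1 and ASF1B. In MDA-MB-231 there were 9, which are 9 of 35 and 9 of 15, where 4.33% of 14889 genes did so. They were ORC6, CDT1, GINS4, PRIM1, RFC3, RFC5, CLSPN, BRCA1 and BRCA2. RFC5, on both lists, had log2 fold changes of -0.19 ± 0.04 and -0.22 ± 0.04 with siRNA and 0.31 ± 0.03 and 0.15 ± 0.03 with shRNA in 293T.

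Summed over the 48 genes, the level was 6858 to 6899 CPM with siEglN2-1 and 6890 to 6931 CPM with siEglN2-2, against 7228 to 7472 CPM with siControl in 293T. In MDA-MB-231 it was 3215 to 3223 CPM with siEglN2-1 and 3193 to 3213 CPM with siEglN2-2, against 3747 to 3761 CPM with siControl. The siRNA libraries lay below their controls in both lines. With KDM5A knocked down, the sum was 7679 to 7742 CPM with shKDM5A-1 and 7771 to 7833 CPM with shKDM5A-2, against 6937 to 6987 CPM with shControl in 293T. In MDA-MB-231 it was 4477 to 4558 CPM with shKDM5A-1 and 3916 to 3940 CPM with shKDM5A-2, against 3854 to 3864 CPM with shControl. The shRNA libraries lay above their controls, by little with shKDM5A-2 in MDA-MB-231. These sums are dominated by the most abundant genes and are given as a description, with no test.

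**Figure D5:**
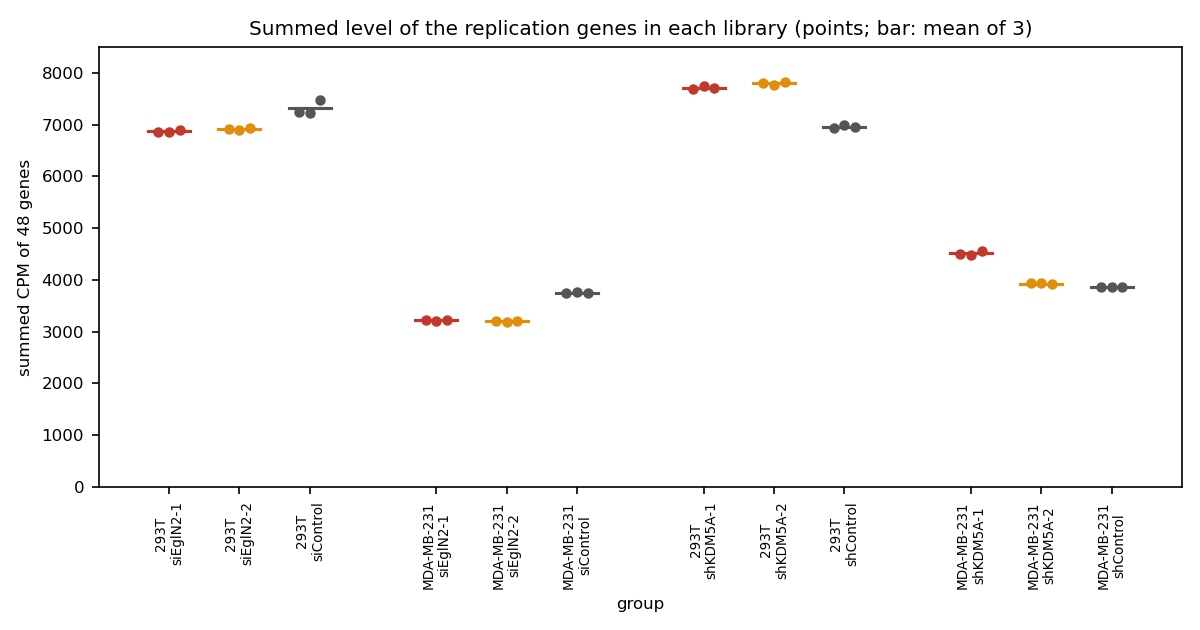
Summed CPM of the 48 genes in each library (points) and the mean of 3 libraries (bar), knockdown groups to the left of their controls in each experiment. The sums with siRNA against EglN2 lie below their controls in both lines, and the sums with shRNA against KDM5A above theirs.

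Other genes of the cell cycle were read by the same test. The shares of all genes tested that rose and fell with both siRNAs were 14.6% and 15.5% in 293T and 18.3% and 20.4% in MDA-MB-231, and with both shRNAs 7.33% and 6.11% in 293T and 16.4% and 15.8% in MDA-MB-231. Of 34 other replication genes, 5 rose (ORC3, POLD3, POLE3, RPA1 and USP1) and 7 fell with both siRNAs in 293T, both near the shares of all genes, and 5 rose (ORC4, POLD3, POLE3, POLE4 and RPA1) and 16 fell in MDA-MB-231. With both shRNAs, 14 rose and 3 fell in 293T (ORC4, POLD2 and POLE4), and 13 rose and 2 fell in MDA-MB-231 (POLD4 and RPA3). The calls of POLE4 in 293T with shKDM5A-2 and of RPA3 in MDA-MB-231 with shKDM5A-1 were each lost without 1 of 2 libraries (shControl replicate 2 or shKDM5A-2 replicate 3, and shControl replicate 3 or shKDM5A-1 replicate 2). DBF4, the partner that activates CDC7, fell with siRNA at -0.37 ± 0.05 and -0.42 ± 0.05 in 293T and -0.75 ± 0.06 and -0.75 ± 0.06 in MDA-MB-231, and rose with shRNA in MDA-MB-231 at 0.62 ± 0.05 and 0.32 ± 0.05. POLD3, a subunit of polymerase delta, rose with siRNA at 0.57 ± 0.04 and 0.56 ± 0.04 in 293T and with shRNA at 0.49 ± 0.04 and 0.16 ± 0.04. RRM2B, the form of the reductase subunit that responds to p53, fell with siRNA at -0.39 ± 0.07 and -0.38 ± 0.07 in 293T and -0.59 ± 0.05 and -0.49 ± 0.05 in MDA-MB-231. POLE3, a subunit of polymerase epsilon that binds histones, rose with shRNA in MDA-MB-231, at 0.54 ± 0.03 and 0.34 ± 0.03.

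Of 27 E2F, RB and G1/S regulators, 8 rose and 8 fell with both siRNAs in 293T, where 14.6% and 15.5% of all genes did, and 5 rose (CCNE2, CDKN1B, E2F3, E2F5 and E2F7) and 13 fell in MDA-MB-231, where 18.3% and 20.4% did. With both shRNAs, 5 rose (CCNE2, CDC25A, E2F8, LIN52 and TFDP1) and 8 were called in opposite directions in 293T, where 7.33% and 8.59% of all genes were. In MDA-MB-231, 12 rose and 3 fell (CDK6, CDKN1A and RBL2), and 6 were called in opposite directions, where 7.29% of all genes were. CCNE2, a cyclin that drives entry into S phase, rose with siRNA at 1.43 ± 0.06 (adjusted p = 1.91e-07) with siEglN2-1 and 1.25 ± 0.06 (adjusted p = 3.95e-07) with siEglN2-2 in 293T and at 0.62 ± 0.09 and 0.70 ± 0.08 in MDA-MB-231. It rose with shRNA as well, at 0.50 ± 0.08 and 0.36 ± 0.08 in 293T. E2F7 and E2F8 are repressors of E2F genes: E2F7 rose with siRNA at 0.54 ± 0.09 and 0.57 ± 0.09 in 293T, and E2F8 with shRNA at 0.41 ± 0.07 and 0.32 ± 0.07 in 293T and 0.45 ± 0.07 and 0.76 ± 0.07 in MDA-MB-231. CDKN1A, the inhibitor p21, fell with siRNA at -0.66 ± 0.04 and -0.77 ± 0.04 and with shRNA at -0.44 ± 0.04 and -0.41 ± 0.04 in MDA-MB-231. CCND3 fell with siRNA at -0.59 ± 0.05 and -0.52 ± 0.05 in 293T, and CDC25A, a phosphatase that activates CDK2, at -0.62 ± 0.05 and -0.60 ± 0.05 in MDA-MB-231.

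Of 32 mitosis genes, 7 rose and 7 fell with both siRNAs in 293T, where 14.6% and 15.5% of all genes did, and 28 fell in MDA-MB-231, where 20.4% of all genes did. MKI67, the antigen of cycling cells, fell with siRNA at -0.96 ± 0.02 and -0.91 ± 0.02 in MDA-MB-231 and was at -0.23 ± 0.14 and -0.24 ± 0.14 in 293T, which did not pass the test. BIRC5, which encodes survivin, fell at -0.58 ± 0.06 and -0.57 ± 0.06 in 293T and -0.53 ± 0.03 and -0.51 ± 0.03 in MDA-MB-231. With both shRNAs, MYBL2 was the 1 of the 32 that rose in 293T, and CENPE and PLK1 were the 2 that fell. In MDA-MB-231, 8 rose with both, KIF23 for instance at 0.39 ± 0.03 and 0.42 ± 0.03. Called in opposite directions were 3 in 293T and 7 in MDA-MB-231, where 8.59% and 7.29% of all genes were. With shKDM5A-1 alone in 293T, 9 rose and 6 fell, where 21.6% and 20.6% of all genes did. In MDA-MB-231, 25 rose and 0 fell with it, where 28.1% and 27.2% did. With shKDM5A-2 alone in 293T, 3 rose and 15 fell, where 19.5% of all genes rose and 19.5% fell. In MDA-MB-231, 10 rose and 9 fell with shKDM5A-2, where 29.4% and 29.6% did. PLK1, a mitotic kinase, was at -0.06 ± 0.03 and -0.70 ± 0.03 in 293T, and with shKDM5A-1 it missed the threshold without any 1 of 5 libraries: shControl replicate 1 or 3, shKDM5A-1 replicate 1 or 3, or shKDM5A-2 replicate 2 (adjusted p 0.0577 to 0.234). How far cell cycle phase moved with the knockdowns was not tested.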

How the data were processed

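Gene expression was measured by RNA sequencing of 36 libraries, made with an NEBNext Ultra II kit per the labels' protocols, and the deposited tables, 1 per experiment, hold raw and normalized values per gene. The authors' raw values, named counts in the file headers, are expected counts with fractions, by their values, since 49.29% to 50.45% of the deposited values are exactly whole, with no tolerance. The authors' normalized columns are on a log2 scale as deposited and were not used here. The submitters' processing notes list STAR 2.4.2, Salmon 0.1.19, GRCh38 and hg19, with no role given. Symbols that a spreadsheet had turned into dates (20 to 22 per table, 0.194% to 0.209% of counts) were left out, and the lowest maximum of a gene over libraries was 10 counts. The unnumbered 293T control column was used as the third siControl library, and 1 further value column, its normalized copy, was left unmatched.

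Expected counts were rounded to whole numbers and the 9 libraries of an experiment were fitted with edgeR 4.0.16 (R 4.3.3, limma 3.58.1; TMM scaling, filterByExpr with a minimum count of 10, robust quasi-likelihood F-test, two-sided, Benjamini-Hochberg over all genes tested, adjusted p under 0.05). The fit was run on simulated counts with changes of 1.5-fold or more. Smaller changes, which most calls among the 48 genes were, were not simulated. A gene counted with both reagents when both passed in the same direction. Differences between lines were tested on 18 libraries. CPM used TMM-adjusted totals, and lengths per kb were of merged GENCODE exons on GRCh38. Values per library were given for the 4 highest and 4 lowest of the 48 genes per experiment, for those called in opposite directions, and for those differing between shRNAs or lines by at least 0.5 on the log2 scale, and values of list genes for up to 2 per direction, list and experiment, with some others chosen after their values were seen. The genes and lists were chosen with earlier results of these data known. Alternatives were DESeq2 1.42.0, median-of-ratios scaling, no filter on low counts, a mean log2 CPM from 1 up, 6 libraries alone, an adjusted p under 0.01, a 1.5-fold minimum, a replicate block and leaving out each library.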

Additional observations from a re-analysis of the deposited data

Results flagged for a closer look

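The size of the change differed between the cell lines for many of the 48 genes, by the interaction test over the 18 libraries of each target. With siRNA against EglN2 this held for 20 genes, where 31.2% of the 14579 genes tested in both lines differed. With shRNA against KDM5A it held for 29 genes, where 44.7% of 14767 genes differed. Differences of at least 0.5 on the log2 scale (MDA-MB-231 minus 293T, mean of both reagents) were found for 5 of them. With siRNA against EglN2 they were -0.71 for E2F1, -0.57 for PRIM1, -0.73 for BRCA1 and -1.05 for BRCA2. With shRNA against KDM5A the difference was 0.54 for RFC3. In the 293T controls of the siRNA experiment, the unnumbered library had the lowest BRCA1 and BRCA2 (63.5 and 15.3 CPM). Without that library the line differences were -0.62 for BRCA1 and -0.86 for BRCA2, and 27 of the 48 genes differed between lines with siRNA against EglN2. The share of all genes in that fit was not computed. With all libraries, the targets themselves fell further in MDA-MB-231, with line differences of -0.70 for EGLN2 and -0.31 for KDM5A.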

How the results depend on the processing

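A minimum change of 1.5-fold took out most calls and left more higher than lower genes with siRNA in 293T. With it, the higher and lower genes numbered 3 and 1 with siRNA in 293T, 0 and 2 with siRNA in MDA-MB-231, and 0 higher with shRNA in each line, with 0 lower in MDA-MB-231. The differences between shRNAs then numbered 1 in 293T and 2 in MDA-MB-231, and the differences between lines 3 for EglN2 and 0 for KDM5A. The count of 18 lower with siRNA in 293T was 9 with 6 libraries alone and 9 at an adjusted p under 0.01. With genes kept from a mean log2 CPM of 1 up, the lower genes with shRNA numbered 1 in 293T and 2 in MDA-MB-231.

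Leaving out 1 library at a time gave 6 to 8 higher and 10 to 20 lower with siRNA in 293T, 2 higher and 32 to 36 lower with siRNA in MDA-MB-231, 23 to 25 higher and 0 to 1 lower with shRNA in 293T, and 12 to 16 higher and 1 to 2 lower with shRNA in MDA-MB-231. The shRNAs differed in 23 to 28 genes in 293T and 33 to 35 in MDA-MB-231, and the lines in 18 to 27 genes for EglN2 and 26 to 29 for KDM5A. The 34 pairs of libraries of equal number in different groups had residual correlations of -0.14 to 0.067, so the numbers were not read as pairs. With the number as a replicate block, the higher and lower genes numbered 8 and 19 with siRNA and 24 and 0 with shRNA in 293T, and 2 and 35 with siRNA and 14 and 1 with shRNA in MDA-MB-231, and the line differences 28 and 28. None of the alternatives run changed the sign of the 163 values of named genes. Of their recomputed values 2435 kept their call and 50 lost it. This tally leaves out the adjusted p under 0.01 and the 1.5-fold minimum, under which calls of named genes were not counted. The causes were not tested. No change of E2F2 with siRNA was detectable at this depth in MDA-MB-231.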
